A study of Mus musculus with 8 samples.

Results

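Laminins are cross-shaped proteins of the basement membrane, each built from an alpha, a beta and a gamma chain, and nidogen links the laminin network to type IV collagen. The alpha3 and beta3 chains belong to the laminin that anchors stratified epithelia such as the cornea and the skin to the tissue beneath. The alpha1, alpha5, beta1, beta2 and gamma1 chains, with nidogen, occur in the lens capsule, the inner limiting membrane of the retina and the walls of vessels. The alpha2 chain is the main alpha chain around muscle fibres and in peripheral nerve.

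The genes described here are the laminin chains Lama1, Lama2, Lama3, Lama5, Lamb1, Lamb2, Lamb3 and Lamc1 and the nidogen gene Nid1. They were chosen by symbol: every probe set (a group of array probes for 1 transcript) whose platform symbol was 1 of these names was taken, which gave 14 probe sets for the 9 genes, out of 20380 probe sets with a single symbol for 12393 genes. Of the 14, 13 passed the filter on low values and were tested. The other, Lamc1 1423886_at, read the lowest listed value of 0.01 in 6 of the 8 arrays and below the pseudocount of 0.0211 in all 8, so its level is not described further. The samples were total RNA of mouse eyes on 8 arrays in 4 groups, with an array I and an array II per group: wild type at 5 days (C57Bl6), KPAW at 5 days, wild type at 1 month and KPAW at 1 month. The labels do not expand KPAW, and give no strain for the other 3 groups and no allele. They do not say whether the arrays of a group came from separate animals, so p-values measure only the spread between these arrays. In KPAW, arrays I and II differed in sex markers at 5 days and in rod genes at 1 month, as given below, so they did not read the same RNA. In wild type the spread may be technical.

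Values are scaled signals: each array was brought to a common trimmed mean, so a change is relative to the average probe set of the array. Log2 fold changes were taken on log2(scaled signal + 0.0211), which understates the change of dim probe sets, and come with a standard error (SE) from limma. A call needs a p under 0.05 after Benjamini-Hochberg adjustment over the 15838 probe sets tested. Levels of different probe sets were not compared with each other. Lens genes, which mark the eye, were read in all 8 arrays, with a sum of up to 42.7. Several libraries stood apart. Array I of KPAW at 1 month had a summed signal of 0.686 over 8 rod photoreceptor genes, against 25.7 to 31.1 in the other 3 arrays of that age. Xist, which marks female cells, read 2.95, 3.64 and 3.13 in wild type I and II and KPAW II at 5 days and at most 0.0861 in the other 5 arrays. The Y-linked Eif2s3y read 0.149 in KPAW I at 5 days and 0.0923 to 0.136 at 1 month. Sex markers thus changed with age in wild type, and their part in the results of age there cannot be told apart from age. At 5 days they also set KPAW I apart from the other 3 arrays. Their part in results that rest on KPAW I at 5 days was not tested.

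The comparison of 1 month with 5 days in wild type asks how these basement membrane genes change as the eye matures. In wild type, 6 of 13 probe sets fell, those of Lama1, Lamb1, Lamc1 and 1 of Nid1, where 9.33% of all probe sets fell, and none rose, where 8.73% of all did (18.1% in either direction). In either direction 8 of 13 (61.5%) had an unadjusted p under 0.05 in limma, beside 33.4% of all probe sets, and Lama3 was the higher one among the 8. The 3 Lamb1 probe sets report the same transcript and are not independent. Both epithelial probe sets lay higher at 1 month in both arrays without passing, a separation upward that 32.5% of all probe sets had, and all 10 probe sets of the lens capsule and vessel chains had values below 0. The median log2 fold change was 0.93 over the 2 epithelial probe sets, -0.75 over those 10 and -0.51 over all 13, beside -0.00 over all probe sets tested.

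**Figure D1:**
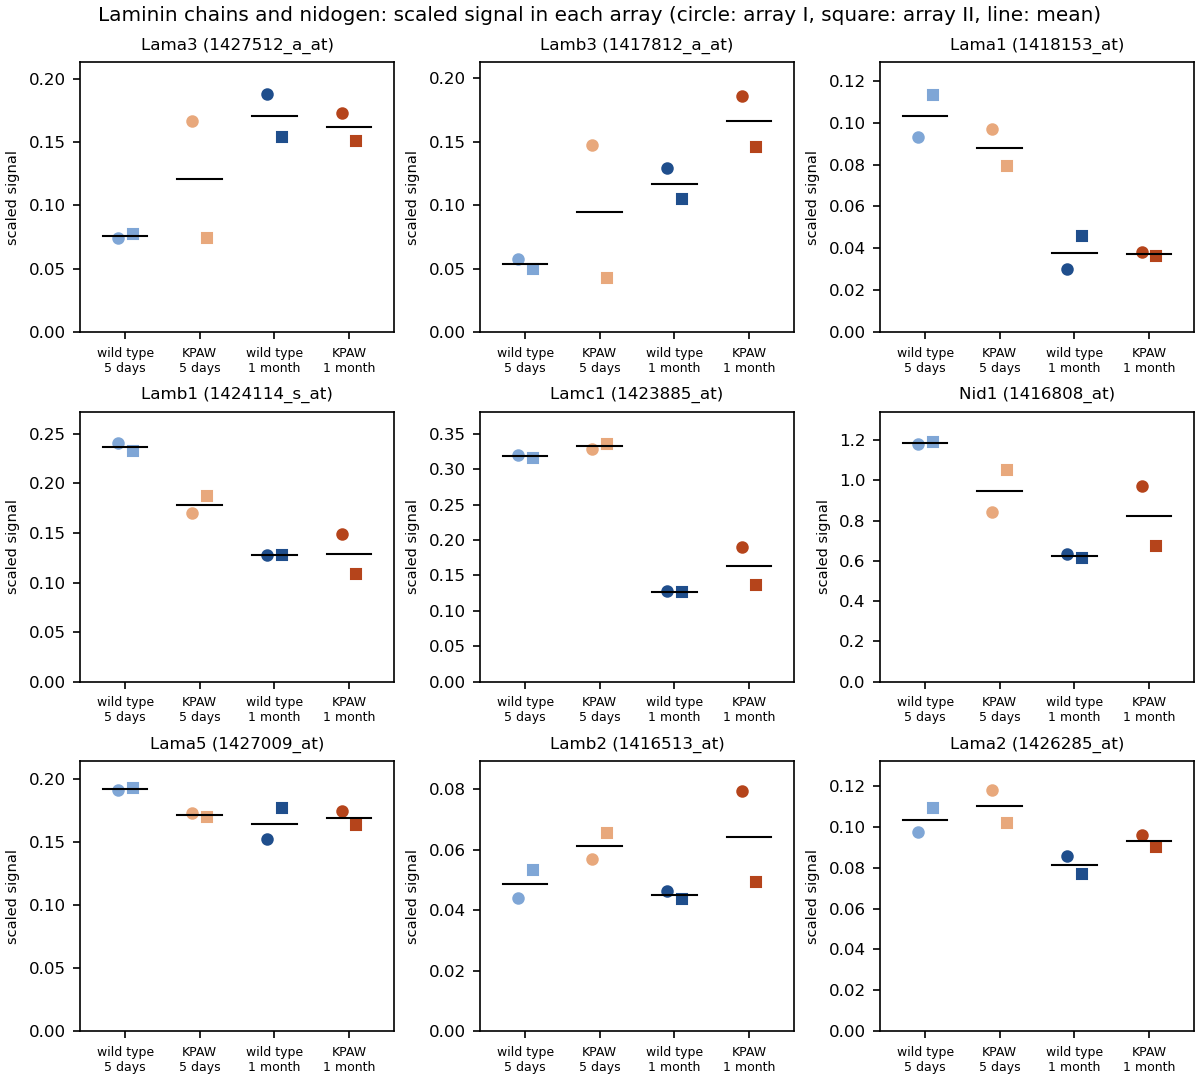
Scaled signal of 1 probe set for each of the 9 genes (vertical axes, each from 0 and on its own scale) in the 4 groups, with array I as a circle, array II as a square and the mean of 2 arrays as a line. Lama1, Lamb1, Lamc1 and Nid1 are lower at 1 month in wild type, while Lama3 and Lamb3 lie higher at 1 month in wild type, without passing, and overlap between the ages in KPAW, whose arrays of 5 days differ widely.

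Lamc1 encodes gamma1, the chain shared by most laminins and the one to which nidogen binds. Its scaled signal was 0.320 and 0.316 in wild type at 5 days, 0.329 and 0.336 in KPAW at 5 days, 0.128 and 0.126 in wild type at 1 month, and 0.190 and 0.136 in KPAW at 1 month. All 4 arrays of 5 days lay above all 4 of 1 month. In wild type it fell by 1.20 on the log2 scale (SE 0.16, adjusted p = 0.00323), from a mean of 0.318 ± 0.00322 to 0.127 ± 0.00188 (SD, n = 2 each). In KPAW it fell by 0.96 (SE 0.16, adjusted p = 0.00934). Its wild-type call held without each of the 8 arrays, and its KPAW call was lost without KPAW II at 5 days (-0.94, adjusted p = 0.0599).

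Lama1 encodes alpha1, a chain of early embryonic basement membranes that the lens capsule and the inner limiting membrane keep. It read 0.0932 and 0.113 in wild type and 0.0970 and 0.0792 in KPAW at 5 days, and 0.0300 and 0.0460 in wild type and 0.0382 and 0.0363 in KPAW at 1 month. The ages did not overlap in either kind of eye. It fell by 1.08 in wild type (SE 0.21, adjusted p = 0.0117) and by 0.90 in KPAW (SE 0.21, adjusted p = 0.0263). The wild-type call was lost without wild type I or II at 5 days (adjusted p = 0.0510 and 0.0808) or wild type I at 1 month (0.0697), and the KPAW call without any 1 of the 4 KPAW arrays (adjusted p 0.0634 to 0.108).

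Lamb1 encodes beta1, the partner of alpha1 and gamma1 in the first laminin made by the embryo. On the probe set 1424114_s_at the scaled signal was 0.241 and 0.233 in wild type and 0.170 and 0.187 in KPAW at 5 days, and 0.128 and 0.128 in wild type and 0.149 and 0.109 in KPAW at 1 month. Wild type at 5 days was the highest group, and KPAW at 5 days lay between it and both groups of 1 month. In wild type its 3 probe sets fell, by 0.79 (SE 0.16, adjusted p = 0.0159), 0.85 (1451241_at, SE 0.19, adjusted p = 0.0211) and 0.72 (1424113_at, SE 0.21, adjusted p = 0.0475). In KPAW only 1451241_at passed, at -0.70 (SE 0.19, adjusted p = 0.0480), beside -0.43 and -0.35 for 1424114_s_at and 1424113_at (adjusted p = 0.123 and 0.296); without KPAW I at 1 month 1424114_s_at passed too (-0.62, adjusted p = 0.0498). The name ending s_at marks probes that can also match another transcript. Each wild-type call was lost without any 1 of the 4 wild-type arrays, that of 1424113_at also without either KPAW array of 5 days, and the KPAW call without any array but KPAW I at 1 month.

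Nid1 encodes nidogen 1. Its probe set 1416808_at read 1.18 and 1.19 in wild type and 0.843 and 1.05 in KPAW at 5 days, and 0.635 and 0.616 in wild type and 0.973 and 0.674 in KPAW at 1 month. The wild-type arrays of the ages were far apart, whereas KPAW I at 1 month lay between the KPAW arrays of 5 days. It fell by 0.90 in wild type (SE 0.19, adjusted p = 0.0165) and differed by -0.21 in KPAW (SE 0.19, adjusted p = 0.486). The difference between those changes was 0.69 (SE 0.27, 95% interval 0.07 to 1.31) and did not pass (adjusted p = 0.809); without KPAW I at 1 month it was 0.43. The second probe set, 1448469_at, did not pass in wild type (-0.51, SE 0.21, adjusted p = 0.128) or in KPAW (-0.08, SE 0.21, adjusted p = 0.841). The wild-type call of 1416808_at was lost without any 1 of the 4 wild-type arrays (adjusted p 0.0768 to 0.0912).

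Lama5 encodes alpha5, the most widespread alpha chain of mature basement membranes, vessels included. Its probe set 1427009_at read 0.192 and 0.193 in wild type and 0.173 and 0.170 in KPAW at 5 days, and 0.153 and 0.177 in wild type and 0.175 and 0.164 in KPAW at 1 month. The 8 arrays spanned a narrow range, and the change with age was -0.20 in wild type (SE 0.14, adjusted p = 0.347) and -0.02 in KPAW (SE 0.14, adjusted p = 0.952). Lamb2 encodes beta2, a chain of retinal, synaptic and vessel basement membranes. It read between 0.0438 and 0.0794 in the 8 arrays and changed by -0.07 in wild type (SE 0.22, 95% interval -0.58 to 0.43, adjusted p = 0.846). Lama2 read 0.0972 and 0.109 at 5 days and 0.0859 and 0.0771 at 1 month in wild type, a difference of -0.28 (SE 0.16, adjusted p = 0.259). Its groups did not overlap, which in that direction held for 33.0% of all probe sets. The summed signal of 10 skeletal muscle genes was 3.31 to 4.86 in wild type at 1 month and 3.77 to 5.04 at 5 days.

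Lama3 encodes alpha3. Its scaled signal was 0.0743 and 0.0773 in wild type and 0.167 and 0.0743 in KPAW at 5 days, and 0.188 and 0.154 in wild type and 0.173 and 0.151 in KPAW at 1 month. KPAW I at 5 days stood with the arrays of 1 month and the other 3 arrays of 5 days stood together below them. The sex markers Xist and Eif2s3y divided the arrays in the same way, and their part in the Lama3 values was not tested. The change in wild type was 0.98 (SE 0.29, 95% interval 0.31 to 1.65), which narrowly missed the threshold (adjusted p = 0.0522), and it was called without either KPAW array of 5 days (adjusted p = 0.0104 and 0.0103) or with the wild-type arrays alone (0.00848). In KPAW it was 0.45 (SE 0.29, adjusted p = 0.336), 0.94 without KPAW I at 5 days (adjusted p = 0.0327) and -0.04 without KPAW II at 5 days.

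Lamb3 encodes beta3, the partner of alpha3. It read 0.0574 and 0.0494 in wild type and 0.147 and 0.0425 in KPAW at 5 days, and 0.129 and 0.105 in wild type and 0.186 and 0.146 in KPAW at 1 month. The order of the arrays was much like that of Lama3, with KPAW I at 5 days again among the arrays of 1 month. The change was 0.89 in wild type (SE 0.39, adjusted p = 0.159) and 0.85 in KPAW (SE 0.39, adjusted p = 0.191). It was called in wild type without either KPAW array of 5 days (adjusted p = 0.0230 and 0.0222) or with the wild-type arrays alone (0.0174), and in KPAW without KPAW I at 5 days (1.55, adjusted p = 0.00985). Across the 8 arrays Lama3 and Lamb3 correlated at r = 0.94, while Lama3 correlated at -0.82 with Lamb1 1424114_s_at and at -0.72 with Lamc1. With Lamb2 and Lama5 1427010_s_at it correlated at 0.06 and 0.07, so not all lens capsule and vessel chains ran opposite to it. These values describe 8 arrays that share ages and scaling.

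Promoters of the members are shown because Lamb1 and Nid1 fell in wild type while Lamb3 lay higher without passing. From RefSeq's table of gene starts (GRCm38.p6), 7 starts for 6 of the 9 genes were used. The chromosome of Lama3 was left out of this search, so Lama3 is not covered, and Lama1 and Lamc1 had no entry. The 250 bases before the start follow, 5′ to 3′, for Lamb3 (first of 2 starts, chr1:193301744-193301993, plus strand), Lamb1 (chr12:31265043-31265292, plus strand) and Nid1 (chr13:13437352-13437601, plus strand), with motif matches in capitals (CCGCCC and ATTGG are the GC and CCAAT boxes read on the other strand).
Lamb3: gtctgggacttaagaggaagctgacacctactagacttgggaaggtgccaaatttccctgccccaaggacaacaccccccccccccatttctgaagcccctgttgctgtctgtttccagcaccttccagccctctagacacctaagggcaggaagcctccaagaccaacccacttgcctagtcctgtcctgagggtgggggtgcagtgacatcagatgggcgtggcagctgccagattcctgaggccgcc
Lamb1: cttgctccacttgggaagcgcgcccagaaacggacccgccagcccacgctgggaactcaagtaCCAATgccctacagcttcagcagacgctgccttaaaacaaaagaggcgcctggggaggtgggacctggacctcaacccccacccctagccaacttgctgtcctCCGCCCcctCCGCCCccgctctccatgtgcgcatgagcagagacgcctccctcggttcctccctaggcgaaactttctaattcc
Nid1: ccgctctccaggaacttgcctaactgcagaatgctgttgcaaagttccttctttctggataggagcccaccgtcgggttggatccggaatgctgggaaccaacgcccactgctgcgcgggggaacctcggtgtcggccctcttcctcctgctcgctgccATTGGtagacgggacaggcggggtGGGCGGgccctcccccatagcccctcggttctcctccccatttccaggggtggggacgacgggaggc
Both strands were searched for the letters TATAAA of the TATA box, for CCAAT of the box of that name, for GGGCGG of the GC box, for the AP-1 site with TGANTCA, and for the E-box with the letters CACCTG. Lamb1 held 1 CCAAT box and 2 GC boxes and Nid1 held 1 of each, while this Lamb3 window held no match and the window of its second start held 1 E-box. The windows of Lama2 and Lamb2 held no match either. That of Lama5, which was not called with age, held E-boxes and more GC boxes than the Lamb1 window. Over 32851 promoter windows of the same length, 33.8% held a CCAAT box, 32.7% a GC box, 12.4% a TATA box, 6.75% an AP-1 site and 17.2% an E-box. The dinucleotide CG occurred 14 times in the Lamb1 window, 16 times in that of Nid1 and 2 times in that of Lamb3, beside 0 in Lama2, 3 in Lamb2 and 19 in Lama5, against a median of 6 over all windows. A match describes the letters only and shows no binding.

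**Figure D2:**
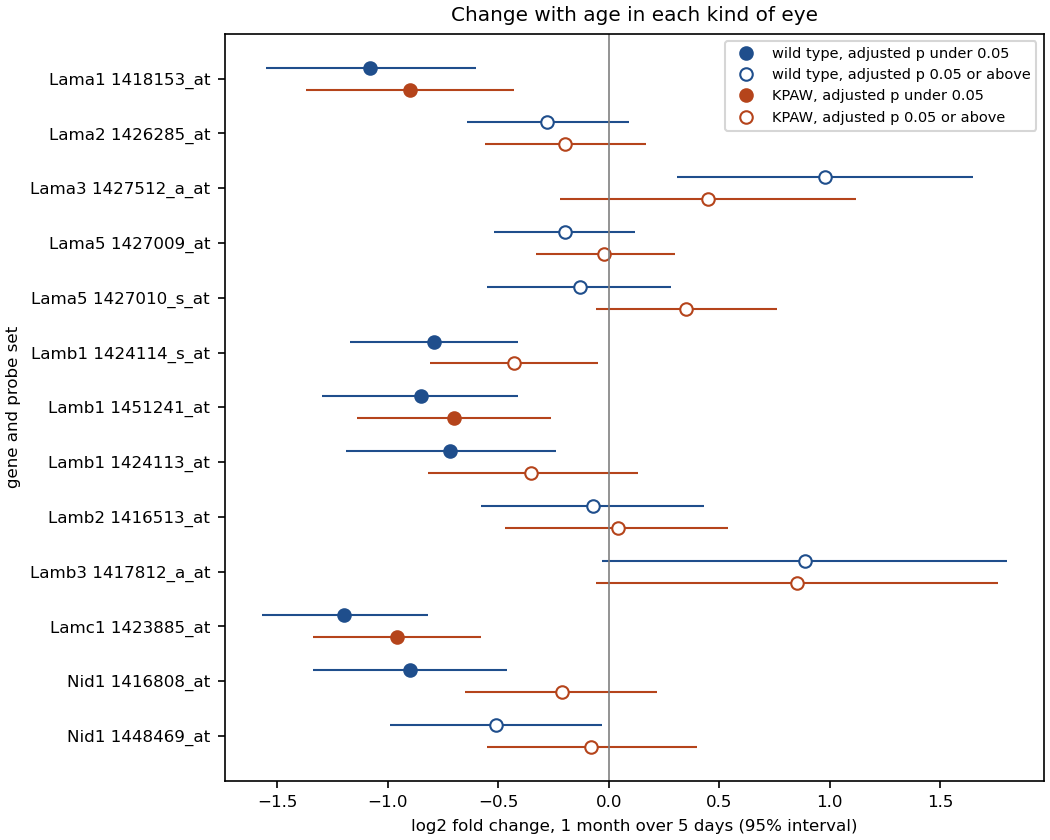
Log2 fold change of 1 month over 5 days (horizontal axis, with the 95% interval from limma) for the 13 tested probe sets, in wild type (blue) and KPAW (red), filled where the adjusted p was under 0.05. The 6 filled wild-type points and 3 filled KPAW points lie below 0, and Lama3 and Lamb3 lie above it. The open KPAW points of Lama5 1427010_s_at (0.35) and Lamb2 (0.04) lie above 0 too.

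In KPAW 3 of 13 probe sets fell with age (Lama1, Lamb1 1451241_at and Lamc1), where 7.51% of all probe sets fell, and none rose, where 6.76% did. In either direction 4 of 13 had an unadjusted p under 0.05 in limma, a share of 30.8% beside 30.6% of all probe sets, and none of the 4 was higher. Both KPAW arrays of 1 month lay below both of 5 days for 6 of the 13 (46.2%), beside 32.2% of all. With the KPAW arrays alone the adjusted p of these 3 was 0.0610 to 0.138, and on the values as deposited 0.0529 to 0.194. The median over the 10 lens capsule and vessel probe sets was -0.28, with 8 below 0. Lama5 1427010_s_at was the one whose KPAW arrays of 1 month (0.0898 and 0.0698) lay above both KPAW arrays of 5 days (0.0568 and 0.0585), by 0.35 (SE 0.18, adjusted p = 0.228), a separation upward that 25.3% of all probe sets had. No probe set of the 13 passed the test of a different change in KPAW (limma), and 0% of all probe sets did. At an unadjusted p under 0.05 it was 1, Nid1 1416808_at, and 5.88% of all.

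The scaling sets how these results of age read. On the values as deposited, with no scaling, the median of all probe sets shifted by 0.44 in wild type, 3238 probe sets were called higher and 327 lower in place of 1382 and 1478, and the 2 members called were Lama3 (1.42, adjusted p = 0.00100) and Lamb3 (1.29, adjusted p = 0.00477). Lamc1 was then at -0.74 (adjusted p = 0.0783) and Lama1 at -0.71 (adjusted p = 0.0877), and Lama2, Lama5 and Lamb2 turned to values above 0. Relative to the median of all probe sets, Lamc1 lay at -1.19 with scaling and -1.17 without, Nid1 1416808_at at -0.90 and -0.84, and Lama3 at 0.99 and 0.98. Scaling multiplies an array by 1 factor, so these values are close by construction.

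Marker genes of several tissues and of the cell cycle were read in the same arrays. Basal surface epithelium (9 of 10 listed genes on the array) summed to 4.35 and 2.96 in wild type at 5 days and 12.3 and 12.9 at 1 month. In wild type 3 of the 9 rose and 0 fell, beside 8.73% and 9.33% of all probe sets. Krt5, the keratin of basal cells, rose by 2.53 (SE 0.66, adjusted p = 0.0343). Cdh3 read lower in wild type at 1 month (0.0581 and 0.0523) than at 5 days (0.109 and 0.0626). The basal epithelium sum was 11.3 and 1.84 for KPAW I and II at 5 days, the arrays that read 0.147 and 0.0425 for Lamb3. Stroma fibroblasts (7 of 8) summed to 17.8 and 17.6 in wild type at 5 days and 7.53 and 7.17 at 1 month, and 6 of the 7 fell. Endothelium (11 of 11) summed to 2.48 and 2.21 and then 1.56 and 1.76, with 3 of 10 tested genes lower and 1 higher. Lens (7 of 10) summed to 37.6 and 40.5 at 5 days and 30.8 and 40.2 at 1 month, which overlap, with 1 of 7 lower. Cell cycle genes (7 of 8) summed to 1.98 and 1.80 and then 0.529 and 0.527. No marker with a probe set in these lists was at the lowest listed value in every array. The part of these tissues in the laminin results was not tested, and in whole eyes fewer cells of a type and less RNA per cell cannot be told apart.

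**Figure D3:**
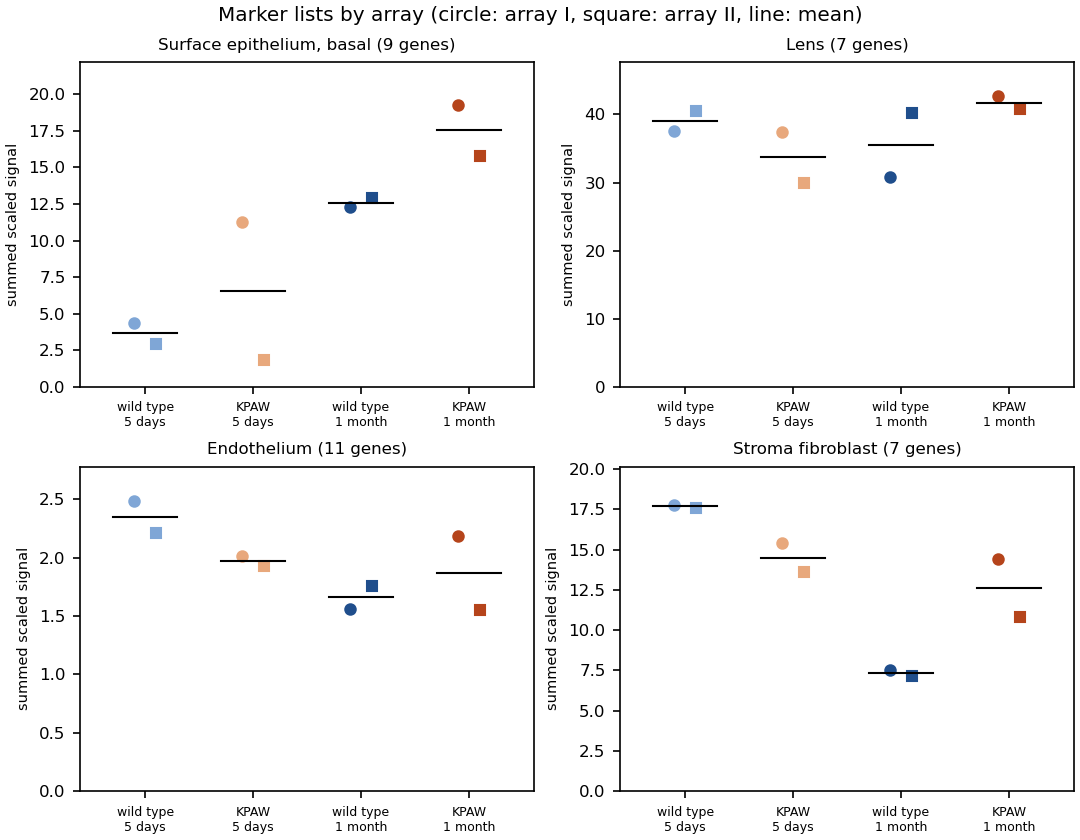
Summed scaled signal of the marker genes of 4 tissues (vertical axes from 0) in the 4 groups, with array I as a circle, array II as a square and the mean as a line. The basal epithelium sum of 11.3 in KPAW I at 5 days lies near the wild-type arrays of 1 month, the stroma sum is lowest in wild type at 1 month, and the lens sums of wild type overlap between the ages.

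In eyes of 1 month, KPAW was set against wild type to see which of these genes differ between the 2 kinds of eye. None of the 13 passed (limma, lowest adjusted p = 0.675), where 0.0253% of all did, 0.0126% higher and 0.0126% lower. At an unadjusted p under 0.05 it was 0 of 13, where 6.95% of all had one. Values ran from -0.31 to 0.44 with a median of 0.15, beside -0.01 over all probe sets. For 6 of the 13 (46.2%, beside 17.0% of all probe sets) the groups were separate with KPAW higher: both of Nid1 and those of Lamb3, Lamb2, Lamc1 and Lama2. In 1, Lamb1 1451241_at (0.0596 and 0.0382 against 0.0643 and 0.0651), both lay below, where 19.6% of all probe sets did so.

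For Nid1 1416808_at the difference at 1 month was 0.36 (SE 0.19, 95% interval -0.08 to 0.80), for Lamc1 0.30 (SE 0.16, -0.08 to 0.68), for Lamb2 0.35 (SE 0.22, -0.16 to 0.85) and for Lamb3 0.44 (SE 0.39, -0.47 to 1.35). In each of the 4, KPAW I, the array with few rod transcripts, was the highest of the 4 arrays of that age. Without it the values were 0.10 for Nid1, 0.09 for Lamc1, 0.09 for Lamb2 and 0.28 for Lamb3. Stroma fibroblast markers summed to 14.4 and 10.8 for KPAW I and II beside 7.53 and 7.17 for the wild-type arrays. KPAW I also had the highest sum of that age for basal epithelium (19.3), lens (42.7), endothelium (2.18) and cell cycle genes (0.878). It did not for rod genes (0.686) or skeletal muscle genes (4.81). The part of these tissues in the member values was not tested. For Lama3, the partner of Lamb3, the difference was -0.06 (SE 0.29, -0.74 to 0.61). Krt14, another basal keratin, read 4.05 and 3.14 in KPAW and 0.590 and 0.597 in wild type without passing (2.54, SE 1.08, adjusted p = 0.675). The 9 basal epithelium genes had a median of 0.02, with 3 separate upward and 3 downward, beside 17.0% and 19.6% of all probe sets. Krt5 read 4.43 and 4.18 in KPAW and 4.61 and 4.55 in wild type. Col17a1 differed by -0.98 (SE 0.34, adjusted p = 0.675). Lama1 (-0.00, -0.48 to 0.47) and Lama5 1427009_at (0.04, -0.28 to 0.35) had the values nearest 0 with Lamb1 1424114_s_at (-0.01, -0.39 to 0.37). On the values as deposited the median of all probe sets shifted by -0.25 in this comparison, and Lama2, both Lama5 and 1 Lamb1 probe set turned below 0.

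**Figure D4:**
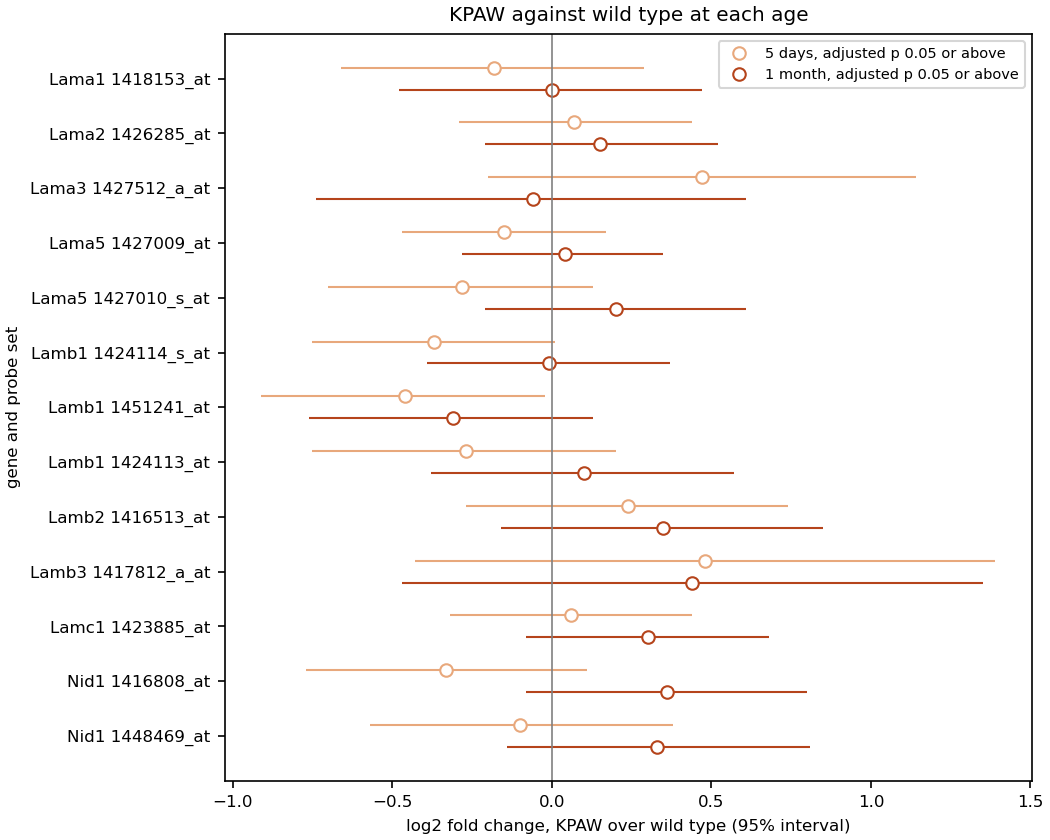
Log2 fold change of KPAW over wild type (horizontal axis, with the 95% interval from limma) for the 13 tested probe sets at 5 days (light) and 1 month (dark). No point is filled, since none passed, and Nid1 1416808_at lies at -0.33 at 5 days and at 0.36 at 1 month.

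At 5 days none of the 13 probe sets passed either (limma, adjusted p = 1.00 for each, and 1, Lamb1 1451241_at, with an unadjusted p under 0.05), where 0% of all passed and 2.39% had an unadjusted p under 0.05. In 6 both KPAW arrays lay below both wild-type arrays, where 16.6% of all probe sets did so: the 3 of Lamb1, both of Lama5 and Nid1 1416808_at. In 2, Lamb2 and Lamc1, both lay above, as in 16.8% of all. Lamb1 1451241_at read 0.0902 and 0.0922 in KPAW and 0.145 and 0.123 in wild type, a difference of -0.46 (SE 0.19, 95% interval -0.91 to -0.02), and Lamb1 1424114_s_at differed by -0.37 (SE 0.16). Endothelial markers summed to 2.01 and 1.93 in KPAW and 2.48 and 2.21 in wild type, with 8 of 10 lower in both KPAW arrays. Stroma fibroblast markers summed to 15.4 and 13.6 against 17.8 and 17.6, with 7 of 7 lower. Lens genes were lower in both KPAW arrays in 5 of 7 and smooth muscle and pericyte genes in 4 of 6. Of 9 basal epithelium genes 0 were. The part of these tissues in the Lamb1 values was not tested. Lama3 (0.47, SE 0.29) and Lamb3 (0.48, SE 0.39) rested on KPAW I alone, with -0.02 and -0.23 without it. That array also stood apart in sex markers among those of 5 days, and their part was not tested.

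Other genes of the basement membrane were read from a list of 25, of which 22 were tested. With age in wild type their median was -0.64, none rose (8.73% of all probe sets did) and 11 fell (9.33% of all did). They included 2 relatives of the members: Lama4, which encodes the alpha chain of endothelial laminin, fell by 1.70 (SE 0.30, adjusted p = 0.00832), and Nid2, nidogen 2, fell by 1.36 (SE 0.17, adjusted p = 0.00228). Lama4 read 0.117 and 0.0664 in wild type at 5 days and 0.0165 and 0.00955 at 1 month, the last 2 below the pseudocount, so its fold depends on the pseudocount. Col15a1, a collagen at the outer face of vessel basement membranes, fell by 1.66 (SE 0.25, adjusted p = 0.00444), and the matrix protein gene Fbln2 by 1.36 (SE 0.17, adjusted p = 0.00245). In KPAW 4 fell, beside 7.51% of all probe sets: Lama4 (-1.43), Col15a1 (-1.28), Fbln2 (-1.02) and Nid2 (-0.95). Fbln1 alone rose (1.17, SE 0.22, adjusted p = 0.0122), where 6.76% of all did. Lamc3, a gamma chain of retina and nerve, differed by -0.01 in wild type (SE 0.23, adjusted p = 0.982). None of the 22 passed in limma for KPAW against wild type or for the change between ages. At an unadjusted p under 0.05 in limma there were 7 at 1 month, 0 at 5 days and 6 for the change. The shares over all probe sets were 6.95%, 2.39% and 5.88%. Col4a6, a type IV collagen chain, had the largest value at 1 month (0.71, SE 0.16, adjusted p = 0.470).

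Of 12 laminin receptors, 3 rose with age in wild type and 2 fell, beside 8.73% and 9.33% of all probe sets. Itgb4, the integrin subunit of hemidesmosomes that binds the alpha3 laminin, rose by 1.41 (SE 0.29, adjusted p = 0.0155), and the syndecans Sdc4 (1.57, SE 0.18, adjusted p = 0.00175) and Sdc1 (1.44, SE 0.39, adjusted p = 0.0396) rose too. Itgb1, the integrin subunit used by most other laminin receptors, fell by 1.14 (SE 0.19, adjusted p = 0.00742), and dystroglycan, Dag1, by 0.80 (SE 0.23, adjusted p = 0.0476). In KPAW Sdc4 (0.99) and Bcam (0.85), a receptor of alpha5, rose, where 6.76% of all probe sets did. Of 9 hemidesmosome and anchoring genes 3 rose in wild type, Krt5, Itgb4 and Col17a1, the transmembrane collagen of hemidesmosomes (2.09, SE 0.34, adjusted p = 0.00621), and 0 in KPAW. Of 7 tested genes of the sarcolemma complex that binds alpha2, Dag1 fell in wild type and none passed in KPAW. For KPAW against wild type none of these 3 lists had a member that passed in limma. At an unadjusted p under 0.05 in limma each list had 2 members at 1 month and 0 at 5 days. Of all probe sets 6.95% and 2.39% had one. Dag1 was counted in both the receptor and the sarcolemma list.

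The genes whose log2 values ran most like Lamb3 over the 8 arrays, among 9483 other genes with a tested probe set, were Il1a (r = 0.988), Krt6a (0.981), Il18 (0.980), Arg1 (0.979) and Il33 (0.978). All 5 were higher in KPAW I at 5 days than in the other 3 arrays of that age, as in Krt6a, a keratin of stratified epithelium, at 4.76 against 0.209 to 0.295. Il1a read 0.0203, 0.0156 and 0.0105 in those 3 arrays, below the pseudocount. Arg1 was below it in wild type II and KPAW II at 5 days (0.0126 and 0.00901). The r of these genes thus rests partly on values near the floor. Those most like Lama1 were Senp6 (r = 0.992), Ssr2 (0.991), Ndrg1 (0.989), Commd2 (0.988) and Ndufc2 (0.987), each higher in the 4 arrays of 5 days than in the 4 of 1 month. Ndrg1, for example, read 2.17 to 2.45 at 5 days and 1.08 to 1.39 at 1 month. With 8 arrays in 2 ages many genes share such a pattern, and these values are descriptions.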

How the data were processed

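The deposited table gives 1 signal per probe set and array; the sources used here do not name the software behind these signals. The values were read as linear because the lowest value is fixed at 0.01 (10.0% to 14.9% of an array), none is negative and the highest is 11.1; control probe sets have a median of 1.00 in each array. Of 22690 probe sets 64 controls were left out. Arrays were scaled (factors 0.711 to 1.26) to the median of their trimmed means (2% off each end). The pseudocount, 0.0211, was the 20th percentile, and probe sets with a mean above the 30th percentile (0.0406) were kept.

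One limma model (limma 3.58.1, R 4.3.3) with a mean per group was fitted to all 8 arrays with a variance trend and 4 residual degrees of freedom. Benjamini-Hochberg adjustment ran over 15838 probe sets per contrast. The precision is limited by the number of arrays. On simulated data with 50 probe sets per fold, the wild-type age contrast recovered 10% of those changed 1.5-fold, 60% at 2-fold and 96% at 4-fold, and KPAW against wild type at 1 month 6%, 52% and 98%. In these runs 5 and 6 unchanged probe sets were called. The number of changed probe sets, which affects the adjusted threshold, was set in advance. It was far below the 2860 called with age in wild type and above the 4 called for KPAW at 1 month. These shares therefore do not give the power of the real contrasts. Symbols came from GEO's platform annotation. Figures used Python 3.11.15 and matplotlib 3.10.9.

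The members, lists and tests were chosen with earlier results of these data known. All 13 tested member probe sets are named. Of each list, up to 4 called genes with the largest changes are named, or up to 2 where none was called. For the pattern most like Lamb3 and Lama1, 5 genes each are named. Alternatives were 8 settings and leaving out each array.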

Additional observations from a re-analysis of the deposited data

Results flagged for a closer look

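Nid1 1416808_at was lower in both KPAW arrays than in both wild-type arrays at 5 days (0.843 and 1.05 against 1.18 and 1.19) and higher in both at 1 month (0.973 and 0.674 against 0.635 and 0.616). The change of the KPAW difference between the ages was 0.69 on the log2 scale (SE 0.27, limma, unadjusted p = 0.0339) and did not pass over all probe sets (adjusted p = 0.809). Without KPAW I at 1 month, the array with few rod transcripts, it was 0.43, and on the values as deposited 0.22. The 7 stroma fibroblast markers had a median of 1.08 in the same comparison. Of these, 6 had an unadjusted p under 0.05 in limma, beside 5.88% of all probe sets, and 0 were called. Their part was not tested. Groups of 2 arrays are too small to look for single outlying arrays.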

How the results depend on the processing

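Over 1002 member values under the alternatives, 888 kept their direction and side of the threshold, 50 lost a call, 13 gained one and 51 changed sign. Only the member calls with age, 6 in wild type and 3 in KPAW, could be lost, so most of the 1002 values had no call to lose. Leaving out an array outside a contrast cannot move its log2 fold change. The 888 therefore do not measure how stable the calls are. The cause was not tested. With 2 arrays a group, 1 array can decide a call, and probe sets near the pseudocount give understated folds.

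Leaving out 1 array, the calls among members with age ran from 1 to 7 in wild type and from 0 to 3 in KPAW. Over all probe sets they ran from 848 to 3690 and from 733 to 2173, for KPAW against wild type from 0 to 562 at 1 month and from 0 to 27 at 5 days, and for the change of that difference from 0 to 306; the highest of the last 3 came without KPAW II at 1 month, KPAW II at 5 days and KPAW II at 1 month. On the values as deposited 2 members were called with age in wild type and 0 in KPAW, with 1343 of all probe sets in KPAW, 99 for KPAW at 1 month and 36 for the change of difference. With the higher filter, which tested fewer probe sets, 1 member was called with age in KPAW and 2 of all probe sets for KPAW at 1 month, as with the lower pseudocount (2). With the groups of the contrast alone, 0 members and 604 of all probe sets were called with age in KPAW and 19 of all at 1 month.

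The labels do not say whether the array numerals pair the samples. The I minus II differences of the groups correlated at -0.02 to 0.31, the highest between wild type and KPAW at 5 days. With the numeral as a replicate block, 13 of all probe sets were called for KPAW at 1 month in place of 4, and Lama3 was called with age in wild type (adjusted p = 0.0341). No other member call changed with the block.

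These values changed sign. On the values as deposited, KPAW against wild type at 1 month was -0.08 for Lama2, -0.22 and -0.02 for Lama5 and -0.09 for Lamb1 1424113_at. At 5 days it was 0.03 for Lama5 1427009_at and 0.09 for Nid1 1448469_at. With age it was 0.14 for Lama2, 0.26 and 0.27 for Lama5 and 0.29 for Lamb2 in wild type, and 0.01 for Lama5 1427009_at in KPAW. The change of the KPAW difference was -0.16 for Lama1, -0.31 for Lama2, -0.25 for Lama5 1427009_at, -0.07 and -0.24 for Lamb1 1424114_s_at and 1451241_at, -0.24 for Lamb2, -0.19 for Lamc1 and -0.01 for Nid1 1448469_at. With quantile normalization, KPAW at 1 month was 0.01 for Lama1 and 0.00 for Lamb1 1424114_s_at, and the change of difference 0.02 for Lamb3.

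Leaving out 1 array, KPAW at 1 month ran from -0.20 to 0.19 for Lama1, -0.19 to 0.06 for Lama3, -0.06 to 0.13 for Lama5 1427009_at, -0.20 to 0.18 for Lamb1 1424114_s_at and -0.01 to 0.21 for Lamb1 1424113_at. At 5 days it ran from -0.02 to 0.17 for Lama2, -0.02 to 0.96 for Lama3, -0.23 to 1.18 for Lamb3 and -0.29 to 0.09 for Nid1 1448469_at. The change with age ran from -0.17 to 0.02 for Lamb2 in wild type. In KPAW it ran from -0.04 to 0.94 for Lama3, -0.06 to 0.02 for Lama5 1427009_at, -0.22 to 0.29 for Lamb2, -0.47 to 0.04 for Nid1 1416808_at and -0.21 to 0.06 for Nid1 1448469_at. The change of difference ran from -0.02 to 0.38 for Lama1, -0.01 to 0.17 for Lama2, -0.07 to 0.38 for Lamb1 1451241_at, -0.15 to 0.36 for Lamb2 and -0.74 to 0.66 for Lamb3.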
